A study of Mus musculus with 15 samples.

Results

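The 9 genes of retinoid metabolism described here in mouse colon were the short-chain dehydrogenases Sdr16c5 and Sdr16c6, the retinol carrier Rbp2, the alcohol dehydrogenase Adh1, the retinaldehyde dehydrogenases Aldh1a1, Aldh1a2 and Aldh1a3, the retinol dehydrogenase Dhrs9 and the retinoic acid hydroxylase Cyp26b1. They were taken as the probe sets that the platform annotation pairs with exactly 1 gene symbol, that symbol being on the list, and a gene with several probe sets is represented by the brightest of them on average. By this rule 8 of the 9 genes were measured, out of 18193 genes in all. The expression of Dhrs9 was not analysed here. The level of Sdr16c6 in colon lacking Olfm4 was itself a reason for choosing the genes, so Sdr16c6 is described without a test, and no gene on the list is tested between Olfm4-lacking and Olfm4-intact colon. The remaining 7 measured genes were tested where both groups have the same Olfm4 genotype.

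The data are log2 expression values from 15 Affymetrix arrays, with 3 arrays in each of 5 groups of male mice aged 3 months on a hybrid C57BL/6 and 129 background. The groups were tumour tissue of APC+/-/Olfm4-/- mice, tissue next to the tumour in such mice (adjacent tissue), colon of APC+/+/Olfm4-/- mice (Olfm4 mutant), colon of APC+/-/Olfm4+/+ mice (APC mutant) and wild type colon. Every APC mutation was heterozygous, and the labels used here do not name the mutant allele. The titles of the double mutant arrays carry the numbers of 2 animals, of which 1 gave 2 of the 3 arrays in each of the tumour and adjacent groups, although the series design states 3 mice per group. The number in the title of Olfm4 mutant replicate 3 looks like digits of the other 2 numbers of that group joined, so it is unsure whether that group holds 3 separate animals. The p-values therefore measure the spread between arrays and part of that spread may be technical.

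Vitamin A reaches the gut as retinol esters and carotenoids. In absorptive cells the carrier Rbp2 holds retinol and retinal for esterification, while alcohol and short-chain dehydrogenases turn retinol into retinal, a reversible step. The Aldh1a enzymes then oxidise retinal irreversibly to retinoic acid, the ligand of the nuclear receptors Rar and Rxr, and Cyp26 enzymes break retinoic acid down. Gut epithelium, stromal cells and dendritic cells can all make retinoic acid, which acts on epithelial differentiation and on the homing of lymphocytes. In the mouse, Sdr16c5 and Sdr16c6 are membrane-bound retinol dehydrogenases best known from skin.

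Sdr16c5 and Sdr16c6 are neighbours on chromosome 4 (GRCm38.p6, RefSeq). Sdr16c5 spans chr4:3995942-4019663 and Sdr16c6 spans chr4:4055926-4077514, with 36262 bases between them. Olfm4 lies on chromosome 14. Promoters are printed for Sdr16c6, the listed gene with the largest difference between Olfm4 mutant and wild type colon, and for Rbp2 and Adh1, which were both lower in the tumours. Each runs from 250 bases before the RefSeq gene start to 50 bases after it, 5' to 3' on the gene's strand, and capitals mark the nuclear receptor half-site AGGTCA, searched on both strands (TGACCT on the other).
Sdr16c6, chr4:4077465-4077764, minus strand: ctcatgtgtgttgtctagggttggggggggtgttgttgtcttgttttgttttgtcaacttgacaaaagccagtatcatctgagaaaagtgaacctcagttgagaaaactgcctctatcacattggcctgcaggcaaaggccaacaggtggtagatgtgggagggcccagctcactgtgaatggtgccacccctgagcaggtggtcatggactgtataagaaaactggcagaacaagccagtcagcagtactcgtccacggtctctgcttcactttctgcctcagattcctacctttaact
Rbp2, chr9:98490287-98490586, plus strand: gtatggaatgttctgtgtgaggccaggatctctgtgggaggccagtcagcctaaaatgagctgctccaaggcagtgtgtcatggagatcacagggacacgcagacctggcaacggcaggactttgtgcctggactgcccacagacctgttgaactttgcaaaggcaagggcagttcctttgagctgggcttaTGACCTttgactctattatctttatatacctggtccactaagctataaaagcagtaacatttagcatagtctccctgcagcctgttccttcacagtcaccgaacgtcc
Adh1, chr3:138277335-138277634, plus strand: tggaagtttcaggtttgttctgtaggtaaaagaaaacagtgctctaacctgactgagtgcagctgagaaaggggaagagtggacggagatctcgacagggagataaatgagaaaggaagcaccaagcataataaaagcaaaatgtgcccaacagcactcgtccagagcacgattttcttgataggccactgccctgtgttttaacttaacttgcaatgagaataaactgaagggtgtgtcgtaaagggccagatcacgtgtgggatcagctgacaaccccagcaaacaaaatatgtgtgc
A promoter entry was found for 7 of the 9 genes (8 entries, since Aldh1a1 has 2 starts). The half-site occurred in 2 of these 8 entries, those of Rbp2 and Dhrs9, and in 16.3% of 32851 RefSeq promoters of the same length. In Rbp2 it begins at position -58 from the gene start. A match of letters is a description and not a shown binding site.

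Several arrays and groups stood apart before any gene was considered. The only Olfm4 probe set lay between 2.97 and 3.32 on all 15 arrays, near the lowest value in the table (2.56), so it gives no check of the Olfm4 genotype. The bacterial control RNAs read higher at their 3-prime than at their 5-prime probe sets, by 4.94 ± 0.238 (SD, n = 3) on the log2 scale in tumour, 4.13 ± 0.268 in adjacent, 2.75 ± 0.532 in Olfm4 mutant, 2.31 ± 0.188 in APC mutant and 2.12 ± 0.0764 in wild type arrays. This spike-in difference, which is measured on added RNA and not on the tissue, runs with the groups and with the array numbers in the labels, so it and the groups can hardly be told apart. The tissue's own Gapdh probe sets ran the same way, their 3-prime minus 5-prime difference averaging 4.57 in tumour, 3.97 in adjacent, 1.496 in Olfm4 mutant, 0.663 in APC mutant and 0.589 in wild type arrays. Actb gave 4.04 to 4.46 in tumour and 1.01 to 1.27 in wild type arrays, with the other groups between. Olfm4 mutant replicate 2 had a spike-in difference of 3.37, against 2.42 and 2.48 on the other arrays of its group. Epithelial markers were bright everywhere: the mean over the 7 markers Epcam, Cdh1, Krt8, Krt18, Krt19, Vil1 and Cldn7 ran from 13.27 to 13.44 in tumour, 13.53 to 13.62 in adjacent, 13.66 to 13.77 in Olfm4 mutant, 13.79 to 13.91 in APC mutant and 13.83 to 13.97 in wild type arrays.

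Sdr16c6 differed more between the 4 non-tumour groups than any other gene on the list did. Its values were 5.81, 5.50 and 5.41 in tumours, 8.30, 9.53 and 9.21 in adjacent tissue, 8.46, 7.24 and 7.98 in Olfm4 mutant colon, 6.22, 5.12 and 6.92 in APC mutant colon, and 4.64, 3.81 and 4.43 in wild type colon. Adjacent tissue was highest and wild type lowest. Adjacent and Olfm4 mutant arrays overlapped, all arrays of these 2 groups lay above every APC mutant array, the tumour arrays lay within the APC mutant range, and every tumour and APC mutant array lay above every wild type array. The tumours, which lack Olfm4, thus did not share the high level of the other Olfm4-lacking tissue.

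Expressed as differences, Sdr16c6 was 3.60 higher on the log2 scale in Olfm4 mutant than in wild type colon (SE 0.44, 12.1-fold), 4.72 higher in adjacent tissue than in wild type (26.4-fold) and 2.93 higher in adjacent tissue than in APC mutant colon (7.62-fold). In tumours it was 1.28 higher than in wild type colon, 0.51 lower (log2 difference -0.51) than in APC mutant colon and 10.9-fold lower than in adjacent tissue (log2 difference -3.44). APC mutant colon, which has Olfm4, was 1.79 above wild type (3.46-fold). These differences share arrays and, since the gene was chosen for its pattern, they are given without a test. With the spike-in difference as a covariate the Olfm4 mutant minus wild type difference was 3.94 (SE 0.58), the adjacent minus wild type difference 5.82 (SE 1.2) and the tumour minus adjacent difference -2.998 (SE 0.64). The tumour minus APC mutant difference changed sign, to 0.93 (SE 1.6). The mean Sdr16c6 level and the mean spike-in difference had the same order over the 4 non-tumour groups, both highest in adjacent tissue, then Olfm4 mutant, APC mutant and wild type colon. The tumours, with the largest spike-in difference, had a lower Sdr16c6 mean than all of these but wild type. The part of the labelling in the Sdr16c6 levels cannot be told apart from that of the groups.

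**Figure D1:**
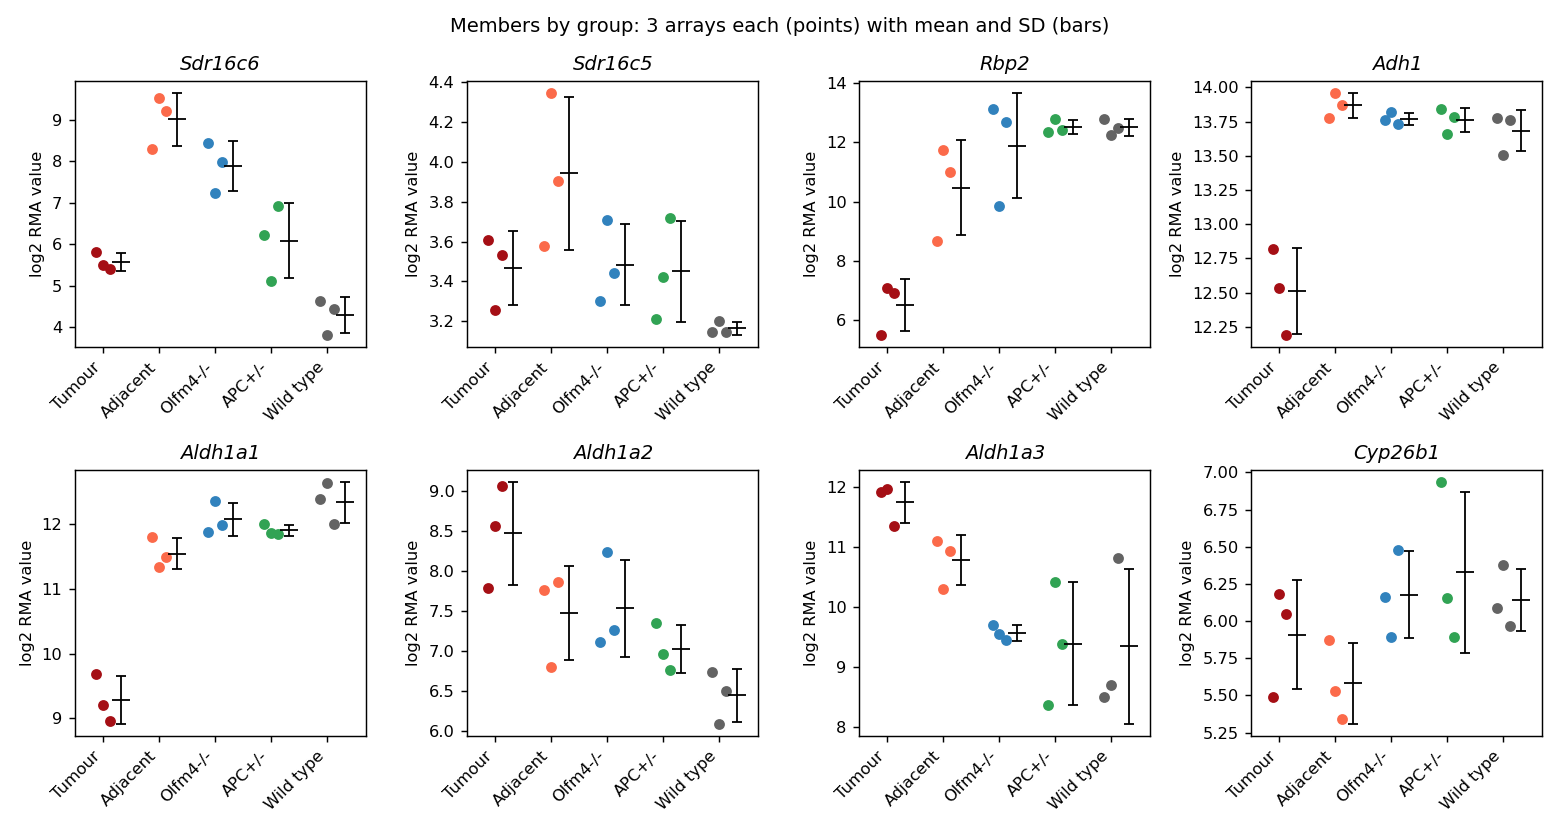
Log2 RMA values of the 8 measured genes in the 3 arrays of each group (points), with the group mean and SD beside them (bars); each panel has its own vertical axis. Sdr16c6 was highest in adjacent tissue (mean 9.02) and lowest in wild type colon (4.29), while Rbp2, Adh1 and Aldh1a1 stood apart in the tumours, with means of 6.51, 12.51 and 9.28.

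Sdr16c5, the neighbour of Sdr16c6, was dim on every array, its mean over arrays exceeding that of 2.23% of genes, and the values carry no detection call. Its levels were 3.61, 3.26 and 3.53 in tumours, 3.58, 4.35 and 3.90 in adjacent tissue, 3.30, 3.71 and 3.44 in Olfm4 mutant, 3.21, 3.42 and 3.72 in APC mutant and 3.15, 3.20 and 3.14 in wild type colon. Like Sdr16c6 it was highest in adjacent tissue and lowest in wild type, and all arrays of the other 4 groups lay above all wild type arrays. The differences were small. Tumours minus adjacent tissue stood at -0.48 (SE 0.19, limma adjusted p = 0.0796), adjacent tissue minus Olfm4 mutant colon at 0.46 (SE 0.19, limma adjusted p = 0.254) and APC mutant minus wild type colon at 0.29 (limma adjusted p = 0.782, 95% interval -0.12 to 0.70). The first of these passed without adjacent replicate 1 (-0.66, limma adjusted p = 0.0227). Over the 15 arrays Sdr16c5 and Sdr16c6 had a Pearson correlation of 0.729, a description only, since the arrays share groups and labelling differences.

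Rbp2, the retinol carrier of absorptive gut cells, was far lower in the tumours. It stood at 5.52, 7.11 and 6.92 in tumours, 8.69, 11.73 and 11.002 in adjacent tissue, 13.10, 9.85 and 12.69 in Olfm4 mutant, 12.35, 12.79 and 12.41 in APC mutant and 12.79, 12.23 and 12.46 in wild type colon. APC mutant and wild type arrays lay close together, whereas adjacent replicate 1 and Olfm4 mutant replicate 2 lay well below the other arrays of their groups. Rbp2 fell 15.6-fold in tumours against adjacent tissue (log2 difference -3.96, SE 0.83, limma adjusted p = 0.00298) and 41.3-fold against Olfm4 mutant colon (log2 difference -5.37, SE 0.83, limma adjusted p = 0.000238). With the spike-in covariate the first difference was -2.39 (limma adjusted p = 0.181) and the second -1.11 (limma adjusted p = 0.95), so neither call remained. Without the covariate, single arrays moved both log2 differences. Tumour minus adjacent tissue was -4.85 without adjacent replicate 1 and -3.33 without adjacent replicate 2. Tumour minus Olfm4 mutant colon was -6.38 without Olfm4 mutant replicate 2 and -4.76 without Olfm4 mutant replicate 1. Tumours stood 5.98 below wild type (log2 difference -5.98, 63.2-fold) as an untested difference, and -0.48 (SE 2.8) with that covariate.

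Between non-tumour groups Rbp2 gave no call. Adjacent minus Olfm4 mutant colon was -1.41 (SE 0.83, limma adjusted p = 0.427, 95% interval -3.21 to 0.39). It was -2.42 without Olfm4 mutant replicate 2 (limma adjusted p = 0.0791) and -0.52 without adjacent replicate 1 (limma adjusted p = 0.826), so its size depended on those 2 arrays. APC mutant and wild type colon differed by 0.02, with a 95% interval from -1.78 to 1.82 (limma adjusted p = 0.999). Against wild type, adjacent tissue had an untested log2 difference of -2.02, which turned to 1.90 (SE 2.07) with the spike-in covariate.

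**Figure D2:**
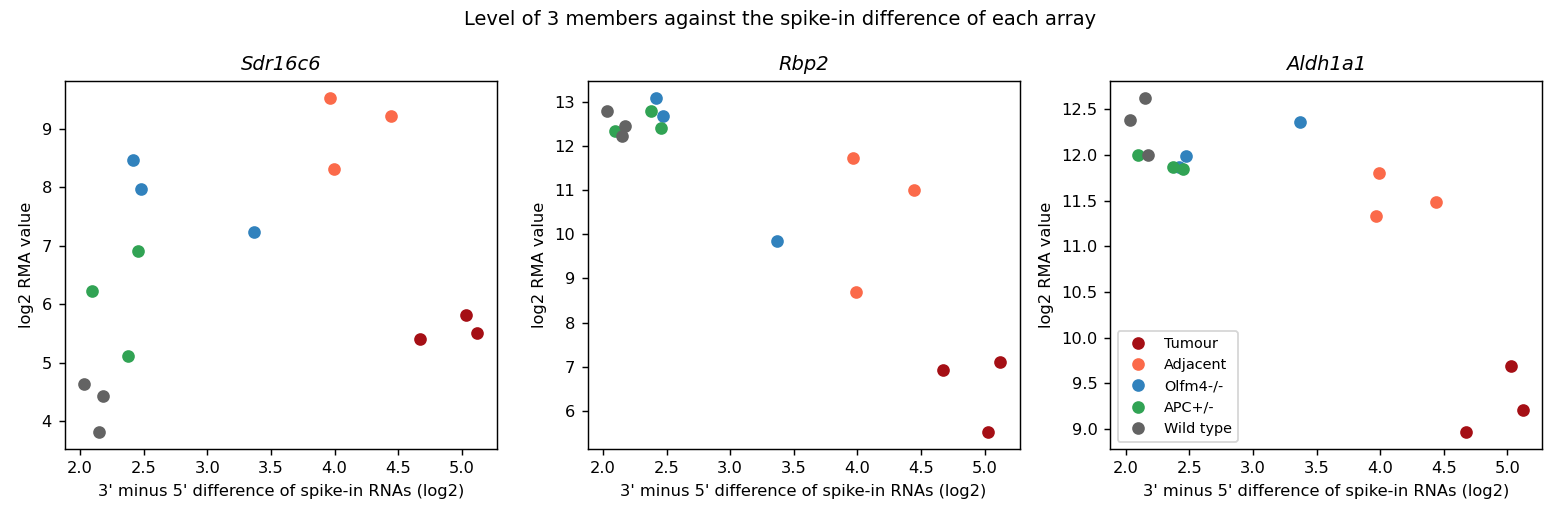
Log2 RMA values of Sdr16c6, Rbp2 and Aldh1a1 on each of the 15 arrays against that array's difference between 3-prime and 5-prime spike-in probe sets (log2). The lowest Rbp2 value of the Olfm4 mutant group (9.85) is on the array with that group's largest spike-in difference (3.37), and the tumour arrays lie at the right of every panel.

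Adh1, which oxidises retinol and other alcohols, was lower in the tumours and very bright everywhere, its mean exceeding that of 98.9% of genes. It read 12.82, 12.53 and 12.19 in tumours, 13.78, 13.96 and 13.87 in adjacent tissue, 13.76, 13.82 and 13.73 in Olfm4 mutant, 13.84, 13.66 and 13.78 in APC mutant and 13.78, 13.51 and 13.76 in wild type colon. No tumour array reached the lowest non-tumour array, and the 4 non-tumour groups overlapped. The tumour minus adjacent difference was -1.35 (SE 0.14, 2.56-fold, limma adjusted p = 1.91e-05) and the tumour minus Olfm4 mutant difference -1.26 (SE 0.14, limma adjusted p = 2.01e-05). With the spike-in covariate the first kept its call (-1.47, limma adjusted p = 0.000893) and the second did not (-1.57, limma adjusted p = 0.149).

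The 3 retinaldehyde dehydrogenases, which make retinoic acid, went different ways. Aldh1a1 fell in tumours. Its values were 9.68, 9.20 and 8.96 in tumours, 11.80, 11.34 and 11.49 in adjacent tissue, 11.87, 12.36 and 11.99 in Olfm4 mutant, 12.00, 11.87 and 11.85 in APC mutant and 12.38, 12.63 and 12.00 in wild type colon. The tumours lay more than 1 log2 unit below every other array, and adjacent tissue was the next lowest group, without overlap with the other 3 groups. Tumours were 4.78-fold below adjacent tissue (log2 difference -2.26, SE 0.21, limma adjusted p = 6.77e-06) and 6.92-fold below Olfm4 mutant colon (log2 difference -2.79, SE 0.21, limma adjusted p = 8.48e-07). Both calls held with the spike-in covariate (-2.53, limma adjusted p = 0.000258, and -3.54, limma adjusted p = 0.0328) and with each array of the groups compared left out. Adjacent minus Olfm4 mutant tissue was -0.53 (SE 0.21, limma adjusted p = 0.228) and APC mutant minus wild type -0.43 (SE 0.21, limma adjusted p = 0.691).

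Aldh1a3 was highest in the tumours. It stood at 11.90, 11.97 and 11.35 in tumours, 11.10, 10.30 and 10.93 in adjacent tissue, 9.70, 9.55 and 9.45 in Olfm4 mutant, 8.37, 10.42 and 9.38 in APC mutant and 8.51, 8.70 and 10.82 in wild type colon. On this brightest probe set tumour arrays were above all others, and the APC mutant and wild type groups were the most spread out (SD 1.03 and 1.28). Aldh1a3 rose 4.52-fold in tumours against Olfm4 mutant colon (log2 difference 2.18, SE 0.57, limma adjusted p = 0.00795), a call lost with the spike-in covariate (0.63, limma adjusted p = 0.964). Against adjacent tissue the difference of 0.96 (SE 0.57) did not pass (limma adjusted p = 0.239), although the arrays did not overlap and it passed in a fit of only those 2 groups (limma adjusted p = 0.033). The 2 other Aldh1a3 probe sets gave 0.62 (SE 0.23) and 0.73 (SE 0.26) for tumour minus adjacent tissue, and 0.89 in both cases for tumour minus Olfm4 mutant colon (limma adjusted p over all probe sets 0.00847 and 0.0192). On the second of these, tumour replicate 2 (6.90) lay below wild type replicate 3 (6.99). Tumours stood 2.40 above wild type as an untested difference, 1.28 with probe sets averaged and 0.41 (SE 2.1) with the spike-in covariate.

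Aldh1a2, a retinaldehyde dehydrogenase of stroma, mesothelium and dendritic cells, stood at 7.79, 8.55 and 9.06 in tumours, 7.76, 6.80 and 7.86 in adjacent tissue, 7.11, 8.23 and 7.25 in Olfm4 mutant, 7.35, 6.96 and 6.76 in APC mutant and 6.74, 6.09 and 6.501 in wild type colon. All arrays of the other 4 groups lay above wild type. Tumours minus adjacent tissue was 0.99 (SE 0.38, limma adjusted p = 0.0695) and tumours minus Olfm4 mutant colon 0.94 (SE 0.38, limma adjusted p = 0.0668), neither past the threshold. Both depended on tumour replicate 1, the lowest of its group: without it they were 1.33 (limma adjusted p = 0.0231) and 1.28 (limma adjusted p = 0.0207). Without Olfm4 mutant replicate 2 the second was 1.29 (limma adjusted p = 0.0188). The first also passed with animal as a random block (limma adjusted p = 0.0375), but not with animal as a replicate block (limma adjusted p = 0.0763) or with arrays of an animal averaged (0.75, limma adjusted p = 0.265). As untested differences from wild type, Aldh1a2 stood 2.02 higher in tumours, 1.03 higher in adjacent tissue and 1.09 higher in Olfm4 mutant colon. With the spike-in covariate these were 0.50 (SE 1.42), -0.058 (SE 1.05) and 0.74 (SE 0.49), so the second turned sign.

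Cyp26b1, which clears retinoic acid, was dim, and its differences without a covariate were small. It read 5.49, 6.18 and 6.05 in tumours, 5.87, 5.53 and 5.34 in adjacent tissue, 6.16, 5.89 and 6.48 in Olfm4 mutant, 6.94, 6.15 and 5.89 in APC mutant and 6.09, 6.37 and 5.97 in wild type colon. Adjacent tissue was lowest and overlapped with the tumours alone. None of its tested differences passed. The largest between 2 groups was adjacent minus Olfm4 mutant at -0.60 (SE 0.27, limma adjusted p = 0.293, 95% interval -1.18 to -0.02), and tumour minus adjacent was 0.33 (95% interval -0.25 to 0.90, limma adjusted p = 0.419). The latter was 0.85 with the spike-in covariate (limma adjusted p = 0.132). As untested differences from wild type, tumours stood at -0.24 and adjacent tissue at -0.56. With that covariate both turned sign, to 1.59 (SE 0.89) and 0.74 (SE 0.66).

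**Figure D3:**
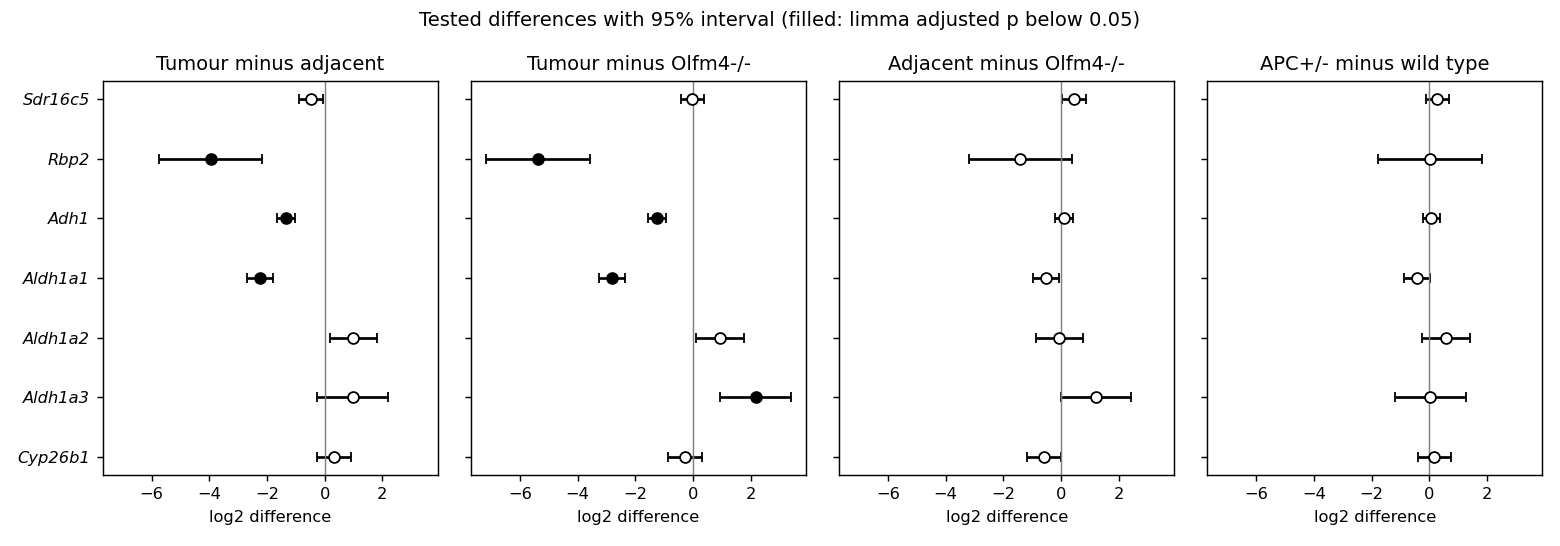
Fitted log2 differences with 95% intervals for the 7 tested genes in 4 comparisons within an Olfm4 genotype; filled points have a limma adjusted p below 0.05. Rbp2, Adh1 and Aldh1a1 are filled on the negative side in both tumour comparisons, Aldh1a3 on the positive side in tumour minus Olfm4 mutant, and no point is filled in the other 2 comparisons.

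Counted over the list, 3 of the 7 tested genes fell and 0 rose in tumours against adjacent tissue, where 28.1% of 18193 genes passed limma's adjusted p of 0.05 (13.8% lower, 14.3% higher). The middle log2 difference of the 7 tested genes was that of Sdr16c5 (-0.48), against a median of 0.00193 over all genes. In tumours against Olfm4 mutant colon 3 of 7 fell and 1 rose, where 39.8% of all genes passed (18.6% lower, 21.1% higher). Here the middle difference of the 7 genes was that of Cyp26b1 (-0.27), against a median of 0.05 over all genes. These 2 comparisons share the tumour arrays and are not separate evidence. In adjacent against Olfm4 mutant tissue 0 of 7 passed, where 0.044% of genes did (8 genes, 0.0385% higher and 0.0055% lower), and in APC mutant against wild type colon 0 of 7 passed, where 0% of genes did. By the same limma fit 3 and 0 of the 7 genes had an unadjusted p below 0.05 in these 2 comparisons, among 2960 and 1324 genes. The count of all genes rested on single arrays: 774 passed in adjacent against Olfm4 mutant tissue without Olfm4 mutant replicate 2, and 188 in APC mutant against wild type without wild type replicate 1, with 0 of the 7 genes among either. Leaving out Olfm4 mutant replicate 3 left 0 genes in the first. Whether the difference between APC genotypes itself differed with Olfm4 status, with adjacent tissue standing for the double mutant, was tested as an interaction, which called 0 of 7 genes and 0% of all genes (1901 genes, 0 of the 7, at an unadjusted p below 0.05).

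Across Olfm4 status the same genes are described by whether arrays overlap. In Olfm4 mutant against wild type colon 3 of the 8 genes did not overlap, beside 27% of all genes. They were Sdr16c6, Sdr16c5 and Aldh1a2, all higher (17% of all genes), and 0 were lower (10%). In adjacent tissue against wild type 6 of 8 did not overlap (40.1% of all genes): the same 3 genes were higher without overlap (26.2% of all genes), and Rbp2, Aldh1a1 and Cyp26b1 were lower (14%). In tumours against wild type 7 of 8 did not overlap (55.2%): Sdr16c6, Sdr16c5, Aldh1a2 and, by its brightest probe set, Aldh1a3 were higher (33.3%), and Rbp2, Adh1 and Aldh1a1 lower (21.9%). Set against APC mutant colon, 4 of 8 did not overlap in adjacent tissue (39.5%), with Sdr16c6 higher (26.5%) and Rbp2, Aldh1a1 and Cyp26b1 lower (13%). In tumours 5 of 8 did not (58.3%), with Aldh1a2 and Aldh1a3 higher (35.5%) and Rbp2, Adh1 and Aldh1a1 lower (22.8%). The first 3 comparisons share the wild type arrays and the last 2 the APC mutant arrays, and the choice of genes used contrasts across Olfm4 status, so nothing is read from these counts. In APC mutant against wild type colon, where both groups have Olfm4, 3 of 8 did not overlap (9.13% of all genes). They were again Sdr16c6, Sdr16c5 and Aldh1a2, all higher (4.66%), with 0 lower (4.47%), read against the same wild type arrays.

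Within the Olfm4-lacking groups, 5 of the 8 genes did not overlap between tumours and adjacent tissue (45.9% of all genes). Aldh1a3 was higher (23.6%), and Sdr16c6, Rbp2, Adh1 and Aldh1a1 were lower (22.3%). The same 5 genes stood on the same sides in tumours against Olfm4 mutant colon, a comparison that shares the tumour arrays (54.3% of all genes, 29.7% higher and 24.7% lower). Between adjacent and Olfm4 mutant tissue 3 of 8 did not overlap (25.2%), with Aldh1a3 higher (13.9%) and Aldh1a1 and Cyp26b1 lower (11.2%). The other Aldh1a3 probe sets did overlap between these groups, with differences of 0.27 (SE 0.23) and 0.16 (SE 0.26).

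Of 40 measured genes from a wider list of retinoid genes, 6 rose and 8 fell in tumours against adjacent tissue, where 14.3% of all genes were called higher and 13.8% lower, so 6 and 8 of 40 are near the background. The median difference was -0.14. Among carriers and uptake proteins 2 of 9 rose and 3 fell. Stra6, the receptor that takes up retinol from its blood carrier, rose by 2.74 (SE 0.27, limma adjusted p = 1.34e-05), with means of 9.07 in tumours and 6.34 in adjacent tissue. Crabp1, a retinoic acid carrier, changed by -1.73 (SE 0.57) and Rbp7, a retinol carrier of adipose and vascular cells, by -1.70 (SE 0.44). Ttr, the blood carrier protein transthyretin, changed by -0.78 (SE 0.19), measured by a probe set that can match several transcripts, and Fabp5, a fatty acid carrier that also binds retinoic acid, rose by 0.68 (SE 0.20).

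Among 16 further retinol and retinal enzymes 3 rose and 4 fell in tumours against adjacent tissue, beside the same 14.3% and 13.8% of all genes. Rdh16 changed by -2.41 (SE 0.24, limma adjusted p = 1.48e-05), Rdh1 by 1.71 (SE 0.20), Rdh9 by 1.27 (SE 0.27) and the alcohol dehydrogenase Adh7 by -1.39 (SE 0.20). Rdh1 was dim, with means of 4.81 in tumours and 3.10 in adjacent tissue. Rdh1, Rdh9 and Rdh16 are related short-chain dehydrogenases, and the Rdh9 probe set can match several transcripts. Of 7 receptor and clearance genes 1 rose and 1 fell. Rarb, a retinoic acid receptor whose gene is itself a target of retinoic acid, rose by 1.27 (SE 0.17, limma adjusted p = 0.00014), and its partner Rxra changed by -0.80 (SE 0.20, limma adjusted p = 0.00978). Of 8 ester and carotenoid genes 0 passed.

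**Figure D4:**
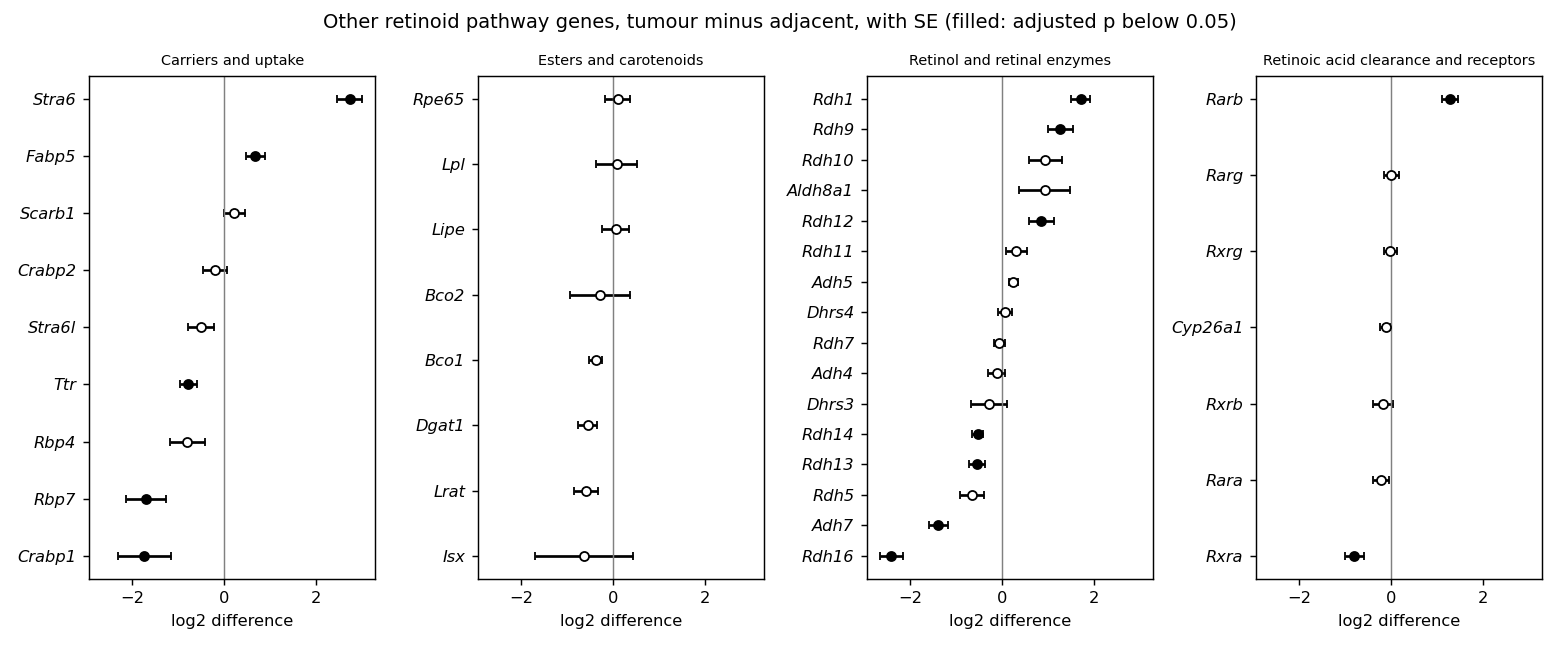
Log2 differences with SE, tumour minus adjacent tissue, of 40 further retinoid genes grouped by role; filled points have a limma adjusted p below 0.05. Stra6 lies furthest to the right (2.74) and Rdh16 furthest to the left (-2.41), and no ester or carotenoid gene is filled.

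Against Olfm4 mutant colon 8 of the 40 genes rose and 12 fell in the tumours, where 21.1% of all genes were called higher and 18.6% lower. The median difference was -0.20. For these 40 genes and for the cell markers below, values with the spike-in covariate are not given. With that covariate fewer of all genes passed in both tumour comparisons. Stra6 rose by 3.21 (SE 0.27), Rarb by 1.501 (SE 0.17) and the dim Rdh1 by 1.55 (mean 3.27 in Olfm4 mutant colon). Rdh10, a main retinol dehydrogenase of the embryo, rose by 1.10 (SE 0.36, limma adjusted p = 0.0263). Crabp1 changed by -2.76 (SE 0.57), Rdh16 by -2.28, Rxra by -1.47, Dgat1, an acyltransferase that can esterify retinol, by -1.07 (SE 0.21), and Bco1, which cleaves beta-carotene to retinal, by -0.72 (SE 0.15). In adjacent against Olfm4 mutant tissue and in APC mutant against wild type colon 0 of the 40 genes passed limma's test, with 5 and 1 of them at an unadjusted p below 0.05, as were 2960 and 1324 of all 18193 genes.

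Markers of differentiated and of non-epithelial cells moved in the same comparison, and in these bulk samples fewer cells of a type and less RNA per cell cannot be told apart. Of 10 absorptive colonocyte markers 9 fell in tumours against adjacent tissue and Slc9a3 rose (1.52, limma adjusted p = 0.0303). Their mean level ran from 9.74 to 10.28 in tumours and from 12.26 to 12.67 in adjacent tissue. It ran from 12.96 to 13.20 in Olfm4 mutant, 13.05 to 13.22 in APC mutant and 13.02 to 13.40 in wild type colon, so this mean was lower in adjacent tissue than in the other non-tumour groups as well. In adjacent against Olfm4 mutant tissue, though, 0 of the 10 markers passed limma's test (median difference -0.27), where 0.044% of all genes did. In tumours Rbp2, Adh1 and Aldh1a1 fell beside these markers, and the part of the markers in those falls was not tested.

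Smooth muscle markers, all 9 of which fell, ran from 8.26 to 9.85 in tumours and from 11.78 to 12.30 in adjacent tissue. The mean of 5 mesothelial markers ran from 4.98 to 5.42 in tumours and from 6.26 to 6.65 in adjacent tissue, with Upk1b and Wt1 lower. The mesothelial gene Aldh1a2 was not lower in that comparison. This mean ran from 6.62 to 7.06 in Olfm4 mutant, 6.47 to 6.95 in APC mutant and 5.34 to 6.54 in wild type colon. Olfm4 mutant arrays thus lay above wild type, as for Aldh1a2, while adjacent and APC mutant arrays overlapped with wild type. The part of mesothelium in the Aldh1a2 levels was not tested. Of 5 dendritic cell markers Itgax alone was called (0.75 higher, limma adjusted p = 0.0138). Flt3, Zbtb46 and Cd209a were lower without a call, and the median difference was -0.20. The dendritic cell mean ran from 7.30 to 7.62 in tumours and from 7.15 to 7.55 in adjacent tissue. Fibroblast markers ran from 10.97 to 11.44 and from 11.11 to 11.54 in the same groups, with Pdgfra higher and Lum lower. Of 5 adipocyte markers Plin4 and Fabp4 fell, and the mean ran from 5.76 to 6.21 in tumours and from 6.82 to 7.84 in adjacent tissue. Of 9 small intestine enterocyte markers Fabp6 and Apob fell and 0 rose.

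Because Sdr16c5 and Sdr16c6 are known from skin, skin markers were also read. The mean of 7 keratinocyte markers ran from 6.85 to 7.50 in tumours, 6.34 to 6.83 in adjacent tissue, 6.30 to 6.48 in Olfm4 mutant, 6.25 to 6.43 in APC mutant and 6.32 to 6.73 in wild type colon. Of these markers only Krt14, a basal keratin, was called in tumours against adjacent tissue (2.72, limma adjusted p = 0.000175). Krt5 (-0.19), Krt10 and Lor were lower without a call, and the median difference of the 7 markers was 0.10. The mean of 5 measured sebaceous gland markers ran from 5.08 to 5.38 in tumours, 5.54 to 5.59 in adjacent tissue, 5.68 to 5.74 in Olfm4 mutant, 5.48 to 5.76 in APC mutant and 5.41 to 5.86 in wild type colon. Of these Far2 fell (-2.47, limma adjusted p = 0.000521) and Scd3 rose (0.78, limma adjusted p = 0.00096) in tumours against adjacent tissue. By these list means the adjacent and Olfm4 mutant arrays, with the highest Sdr16c6 levels, lay within the wild type range for sebaceous markers. The same held for keratinocyte markers but for adjacent replicate 1 and Olfm4 mutant replicate 3. Single sebaceous markers departed from this in both directions. Scd3 was 5.72, 5.76 and 6.12 in adjacent tissue against 5.29, 5.47 and 5.38 in wild type colon. Far2 was 8.39, 8.51 and 8.39 against 8.72, 10.27 and 10.54. Whether skin tissue had a part in the Sdr16c6 levels was not tested.

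Listed genes and symbols of predicted genes or clones were left out of the search for similar genes. Among the rest, the genes whose values over the 15 arrays were most like those of Sdr16c6 were Trim7 (Pearson r 0.948), Crebl2 (0.940), Endog (0.936), Cldn11 (0.923) and Tbc1d32 (0.918). Crebl2 had means of 10.76 in tumours, 11.77 in adjacent tissue, 11.63 in Olfm4 mutant, 11.09 in APC mutant and 10.47 in wild type colon, the same extremes as Sdr16c6 over a narrower range. Those most like Rbp2 were Gpr89 (0.979), Aadac (0.969), Gstp3 (0.969), Stom (0.964) and Ndufb8 (0.963). Aadac, an arylacetamide deacetylase, had means of 6.29 in tumours, 9.77 in adjacent tissue, 10.87 in Olfm4 mutant, 11.52 in APC mutant and 11.75 in wild type colon. Within the list Adh1 and Aldh1a1 were the most alike pair (r 0.905), followed by Rbp2 and Aldh1a1 (0.834). Aldh1a1 and Aldh1a3 ran most nearly opposite (r -0.779), followed by Rbp2 and Aldh1a2 (r -0.776). These values describe 15 arrays that share groups and labelling differences.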

How the data were processed

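RNA from mouse colon was measured on Affymetrix Mouse430_2 arrays. The deposited values are on a log2 scale, judged from their range of 2.56 to 14.96, and were normalized with RMA by the authors, according to the submitters' processing notes (Partek 6.5). RMA gives all arrays 1 distribution, so a shift of most genes is largely removed. The genome build is not given in the sources used here. The number of arrays limits the precision.

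Probe sets with exactly 1 symbol (34945 of 45101) were reduced to 18193 genes by the rule above, with no filter on dim genes. Means of the 5 groups over the 15 arrays were estimated with limma (version 3.58.1, R 4.3.3), with Benjamini-Hochberg adjustment over all genes and a threshold of 0.05. The procedure was tested on simulated data. Alternatives changed the probe set rule, dim genes, normalization, variance prior, arrays used, spike-in covariate and treatment of animals. The spike-in difference averages dap, lys, phe and thr. Sdr16c6 was left untested in every contrast.

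The genes and lists were chosen with earlier results of these data known. Named were the listed genes, up to 4 called genes of largest difference per wider list and comparison, and up to 3 brightest markers per list. Also named were the 5 genes most correlated with Sdr16c6 and with Rbp2, leaving out listed genes and predicted or clone symbols. Fabp5 against adjacent tissue, markers singled out by their call, and the members of the epithelial list were named outside that rule, the first 2 kinds after their values were seen.

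Groups follow the genotype and tissue labels. By their titles, tumour and adjacent arrays share animals. Their deviations from group means correlated from -0.0155 to 0.281 within an animal and from -0.259 to -0.0881 between animals. Deviations within a group cancel out for each gene, so the values between animals are partly fixed by those within an animal. They are not separate evidence that arrays of an animal are alike. Positions and promoters are from RefSeq (GRCm38.p6).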

Additional observations from a re-analysis of the deposited data

How the results depend on the processing

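The falls of Rbp2, Adh1 and Aldh1a1 in tumours against adjacent tissue kept their calls in limma with each array of those groups left out (adjusted p from 0.000825 to 0.0174 for Rbp2), and with animal as a replicate block, where 3 genes of the list again passed (Rbp2 adjusted p = 0.000677, Adh1 2.79e-05, Aldh1a1 2.47e-06). The block changed no call. The spike-in covariate changed most: Rbp2 lost its call in tumours against adjacent tissue (-2.39) and all genes called numbered 2497. In tumours against Olfm4 mutant colon 1 gene of the list and 121 of all genes passed, and Aldh1a2 (-0.24) and Cyp26b1 (1.15) turned sign. With that covariate adjacent against Olfm4 mutant tissue had 0 genes called and turned signs for Rbp2 (1.28), Adh1 (-0.10) and Cyp26b1 (0.30), APC mutant against wild type turned for Aldh1a3 (-0.088), and the interaction for Sdr16c5 (-0.12), Rbp2 (0.89) and Adh1 (-0.15). It also turned the sign of 16 of 44 untested differences. The cause was not tested.

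Genes called in tumours against adjacent tissue numbered 3329 among genes above the median mean (fewer genes tested) and 3286 with arrays of an animal averaged (fewer samples); with animal as a random block 5 genes of the list and 6627 of all genes passed. The gained calls of Sdr16c5 (adjusted p = 0.0434) and Aldh1a2 (0.0375) were absent with arrays averaged (0.316 and 0.265), where 3 genes of the list passed. In tumours against Olfm4 mutant colon 4747 passed above the median mean. Adjacent against Olfm4 mutant tissue had 135 above the median mean, 81 with a trended robust prior, 3 with the random block and 1 with only those groups. The interaction had 1 gene with all probe sets averaged, 1 above the median mean and 1 with cyclic loess. In APC mutant against wild type, Aldh1a3 turned sign with probe sets averaged (-0.062) and, with Rbp2 (-0.030), under loess (-0.017). Over all genes the median difference of adjacent tissue minus wild type was 0.01 under loess and 0.13 without it, with similar shifts in the other untested comparisons of double mutant tissue with Olfm4-intact colon. Under loess 71.4% of the genes called in adjacent against Olfm4 mutant tissue were higher, against 87.5% without it. Sdr16c6 in Olfm4 mutant minus wild type colon was 3.51 under loess.

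With single arrays left out, genes called ranged from 0 to 188 in APC mutant against wild type (188 without wild type replicate 1), from 0 to 774 in adjacent against Olfm4 mutant tissue (774 without Olfm4 mutant replicate 2) and from 0 to 93 in the interaction (93 without wild type replicate 1, 52 without Olfm4 mutant replicate 2). Ranges that crossed 0 in APC mutant against wild type were -0.12 to 0.17 for Rbp2, -0.0076 to 0.13 for Adh1, -0.47 to 0.78 for Aldh1a3 and -0.12 to 0.40 for Cyp26b1. They were -0.27 to 0.29 for Aldh1a2 in adjacent against Olfm4 mutant tissue and -0.11 to 0.093 for Sdr16c5 in tumours against Olfm4 mutant colon. In the interaction they were -0.028 to 0.35 for Sdr16c5, -0.032 to 0.10 for Adh1 and -0.25 to 0.067 for Aldh1a1. Sdr16c6 in Olfm4 mutant minus wild type ranged from 3.31 to 3.92.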
